A study of Mus musculus with 11 samples.

Results

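The Otx2 and Otx1 loci were examined as the gene body of each gene and 150 kb on either side of it. All ChIP-seq peaks of ZIC2, OTX2, SOX2, POU5F1 and POU3F1 with a midpoint in these spans were taken, which gave 308 of the 1004445 peaks in the 10 deposited lists. There were 155 peaks at Otx2 and 153 at Otx1. Of these, 6 peaks of the OTX2 lists lay on coding exons of Otx2, which the transfected OTX2 vector also carries, and they were treated apart.

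The cells were mouse epiblast stem cells (EpiSCs), which are derived from the postimplantation epiblast, of strain 129/Sv. They were grown without feeder cells in a serum-free medium to which activin (20 ng/ml) and Fgf2 (10 ng/ml) were added. In the activin-free cultures, activin was left out for the last 18 h before harvest and Fgf2 was kept. In both cultures each TF was expressed by transient transfection from a pCAGGS vector, with a BLRP tag that the co-expressed BirA ligase biotinylated, and chromatin was recovered on streptavidin. The libraries thus hold the tagged TF added to the TF that the cells already made, in a mixed population and not in a clone. There was 1 library for each TF in each culture, so no value below has a replicate error and no test between cultures could be made. The lists hold no expression values, so the identity of the cells could not be checked against marker genes.

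OTX2 is a homeodomain TF of the epiblast that is later needed for the head and the anterior brain. OTX1 is its close relative and acts in the development of the cerebral cortex and sense organs. Otx2 is known for enhancers that lie far from the gene, in both directions, and its own protein is among the factors that bind such elements. ZIC2 is a zinc finger TF, SOX2 a TF of the HMG box family, and POU5F1 and POU3F1 are POU TFs that bind octamer sequences. Activin signalling maintains the epiblast state, and its removal opens the way to neural development.

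Otx2 (ENSMUSG00000021848.9) lies on the minus strand of chr14:49277354-49287319 in mm9, and Otx1 (ENSMUSG00000005917.8) on the minus strand of chr11:21894767-21902900. Positions below are distances in kb from the 5′ end of the gene, which is the start site farthest upstream among the annotated transcripts, to the midpoint of the peak. The surroundings of these genes were unlike each other. In the Otx2 window no other protein-coding gene was annotated apart from the end of 6720456H20Rik, 143 kb from Otx2, and 129 of 149 peaks at this locus were intergenic. Upstream of Otx1, the 3′ end of Ehbp1 followed after a gap of 2.93 kb, and this gene ran past the end of the window. Ehbp1 contained 100 of the 153 peaks assigned to Otx1, and Wdpcp, on the far side, contained 19. The lists do not show on which gene a peak acts. The 10 lists held from 62457 to 126908 peaks, their read depth is unknown, and the same TF in both cultures shared from 77.6% to 98.3% of its EpiSC peaks.

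The sequences below are 201 bp of mm9 at 11 of the peaks, plus strand, 5′ to 3′. They were chosen to show peaks of high score of ZIC2, OTX2, POU5F1 and POU3F1 at both loci, the peak that stood apart in activin-free cells, and the words that peaks held or lacked. Capitals mark the words GGATTA (for OTX), ATGCAAAT and ATGCATAT (octamers), ACAAAG and ACAATG (for SOX) and CAGCAGG (for ZIC), each on either strand. The windows lie around the peak midpoint except at the OTX2 peak 124.8 kb downstream of Otx2, where the window is centred on the first of 3 GGATTA words in the peak. At the POU5F1 peak 15.3 kb upstream of Otx2 the capitals mark a run of alternating purines and pyrimidines instead.
OTX2 peak of activin-free cells, 85.7 kb upstream of Otx2 (chr14:49372913-49373113): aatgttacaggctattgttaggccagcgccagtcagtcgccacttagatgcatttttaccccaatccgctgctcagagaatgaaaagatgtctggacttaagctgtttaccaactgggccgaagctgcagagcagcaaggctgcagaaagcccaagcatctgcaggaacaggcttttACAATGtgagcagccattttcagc
OTX2 peak of EpiSCs, 124.8 kb downstream of Otx2 (chr14:49161949-49162149): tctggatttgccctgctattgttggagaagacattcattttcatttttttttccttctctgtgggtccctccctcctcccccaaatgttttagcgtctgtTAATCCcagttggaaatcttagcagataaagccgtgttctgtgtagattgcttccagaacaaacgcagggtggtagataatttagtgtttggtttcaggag
ZIC2 peak of EpiSCs, 33.4 kb upstream of Otx2 (chr14:49320666-49320866): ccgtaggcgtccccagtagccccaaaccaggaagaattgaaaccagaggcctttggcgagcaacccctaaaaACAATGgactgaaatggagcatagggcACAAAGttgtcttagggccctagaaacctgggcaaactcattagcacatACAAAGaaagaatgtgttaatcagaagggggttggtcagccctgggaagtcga
ZIC2 peak of EpiSCs, 12.6 kb downstream of Otx2 (chr14:49274662-49274862): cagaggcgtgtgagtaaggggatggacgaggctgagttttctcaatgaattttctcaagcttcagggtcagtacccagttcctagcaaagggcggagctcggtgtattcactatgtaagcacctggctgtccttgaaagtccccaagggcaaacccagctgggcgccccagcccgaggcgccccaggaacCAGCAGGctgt
POU5F1 peak of EpiSCs, 15.3 kb upstream of Otx2 (chr14:49302497-49302697): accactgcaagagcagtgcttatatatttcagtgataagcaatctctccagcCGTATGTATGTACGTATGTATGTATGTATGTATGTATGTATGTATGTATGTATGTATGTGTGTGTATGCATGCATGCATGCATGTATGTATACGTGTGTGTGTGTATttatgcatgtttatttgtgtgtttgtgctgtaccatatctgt
POU5F1 peak of EpiSCs, 72.5 kb upstream of Otx2 (chr14:49359727-49359927): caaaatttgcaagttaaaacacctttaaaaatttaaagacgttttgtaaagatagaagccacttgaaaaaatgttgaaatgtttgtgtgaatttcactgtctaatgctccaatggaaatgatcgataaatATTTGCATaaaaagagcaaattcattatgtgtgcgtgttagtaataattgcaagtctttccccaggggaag
POU3F1 peak of EpiSCs, 141.6 kb upstream of Otx2 (chr14:49428855-49429055): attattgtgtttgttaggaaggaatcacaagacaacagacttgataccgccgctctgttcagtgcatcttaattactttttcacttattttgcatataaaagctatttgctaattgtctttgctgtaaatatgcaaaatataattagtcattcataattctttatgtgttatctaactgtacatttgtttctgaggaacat
ZIC2 peak of EpiSCs, 9.4 kb downstream of Otx1 (chr11:21893370-21893570): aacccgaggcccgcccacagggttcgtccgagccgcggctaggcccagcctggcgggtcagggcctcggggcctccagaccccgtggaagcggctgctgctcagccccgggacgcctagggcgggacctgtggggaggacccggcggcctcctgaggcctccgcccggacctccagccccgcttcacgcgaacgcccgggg
POU5F1 peak of EpiSCs, 6.3 kb upstream of Otx1 (chr11:21909106-21909306): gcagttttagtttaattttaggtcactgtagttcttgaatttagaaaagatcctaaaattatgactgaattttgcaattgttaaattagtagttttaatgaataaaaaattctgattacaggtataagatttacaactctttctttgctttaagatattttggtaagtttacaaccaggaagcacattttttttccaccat
OTX2 peak of EpiSCs, 14.8 kb upstream of Otx1 (chr11:21917587-21917787): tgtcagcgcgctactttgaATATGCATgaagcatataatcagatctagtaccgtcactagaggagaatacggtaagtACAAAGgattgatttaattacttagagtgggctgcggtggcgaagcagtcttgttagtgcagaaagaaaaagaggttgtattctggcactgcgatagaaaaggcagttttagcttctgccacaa
POU3F1 peak of EpiSCs, 43.0 kb upstream of Otx1 (chr11:21945843-21946043): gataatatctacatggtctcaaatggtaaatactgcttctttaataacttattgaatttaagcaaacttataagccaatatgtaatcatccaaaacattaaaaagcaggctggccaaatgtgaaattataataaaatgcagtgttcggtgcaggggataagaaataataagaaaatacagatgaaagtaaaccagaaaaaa

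These sequences differed widely in base composition and in the words they held. The ZIC2 sequence 9.4 kb downstream of Otx1 was 77.1% G and C, whereas the POU3F1 sequence 43.0 kb upstream of the same gene was 29.4%, and neither held any of the words. In the POU5F1 sequence 72.5 kb upstream of Otx2, the octamer ATTTGCAT began 30 bp from the midpoint. The ZIC2 sequence 33.4 kb upstream of Otx2 held 3 SOX words and no ZIC word. The run in the POU5F1 sequence 15.3 kb upstream of Otx2 was 107 bp long.

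On the Otx2 gene itself, the OTX2 lists differed from all others. Peaks of the OTX2 list covered 100% of the 891 coding bases in EpiSCs and 100% in activin-free cells. In EpiSCs these were 3 peaks with scores of 3100, 2045 and 556, where the score is the MACS value of -10 × log10 of the p-value and was at least 50 for every peak. In activin-free cells the 3 peaks had scores of 3100, 2206 and 744. The highest score of each other TF on coding exons of its own gene was likewise 3100 in both cultures. This value was not particular to a TF's own gene. ZIC2 peaks also scored 3100 on coding exons of Sox2 and Pou3f1 in EpiSCs, and of Pou5f1 and Pou3f1 in activin-free cells. The intron bases of Otx2 at a distance of over 500 bp from coding sequence were 4606 bp in all. OTX2 peaks covered 15.9% of them in EpiSCs and 34.2% in activin-free cells. One further OTX2 peak lay in an intron, 0.8 kb from the 5′ end, with scores of 55.4 in EpiSCs and 65.3 in activin-free cells.

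Lower peaks of other TFs also lay on the last coding exon of Otx2. The EpiSC lists had a ZIC2 peak of score 83.6 and a POU3F1 peak of score 189 there. The activin-free lists had peaks of SOX2 (152), POU5F1 (122) and POU3F1 (339) at the same place. The POU3F1 peak was thus listed in both cultures and the others in 1 culture each. For comparison, over the genes of the 5 TFs, a peak of another TF lay on coding exons in 8 of 20 combinations in EpiSCs and in 11 of 20 in activin-free cells, while the TF itself had one in 5 of 5 in both. The source of these low peaks was not tested.

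Within the Otx2 gene, the peaks in introns were few. A SOX2 peak 4.5 kb from the 5′ end, in an intron, had scores of 195 in EpiSCs and 276 in activin-free cells, and a POU3F1 peak beside it had scores of 74.4 and 60.7. The EpiSC ZIC2 list had peaks of 69.7 at the first coding exon, 76.8 in an intron and, 1.4 kb upstream, 86.1, none of which was listed in activin-free cells. The activin-free SOX2 list alone had peaks 1.7 and 4.5 kb upstream, with scores of 68.0 and 60.3. The OTX2 peak nearest to the 5′ end on the upstream side, at 3.0 kb in EpiSCs, had a score of 350.3, and its counterpart in activin-free cells, at 3.6 kb, had a score of 498. These peaks spanned 2221 and 3196 bp, and the median OTX2 peak at the locus 730 and 986 bp.

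**Figure D1:**
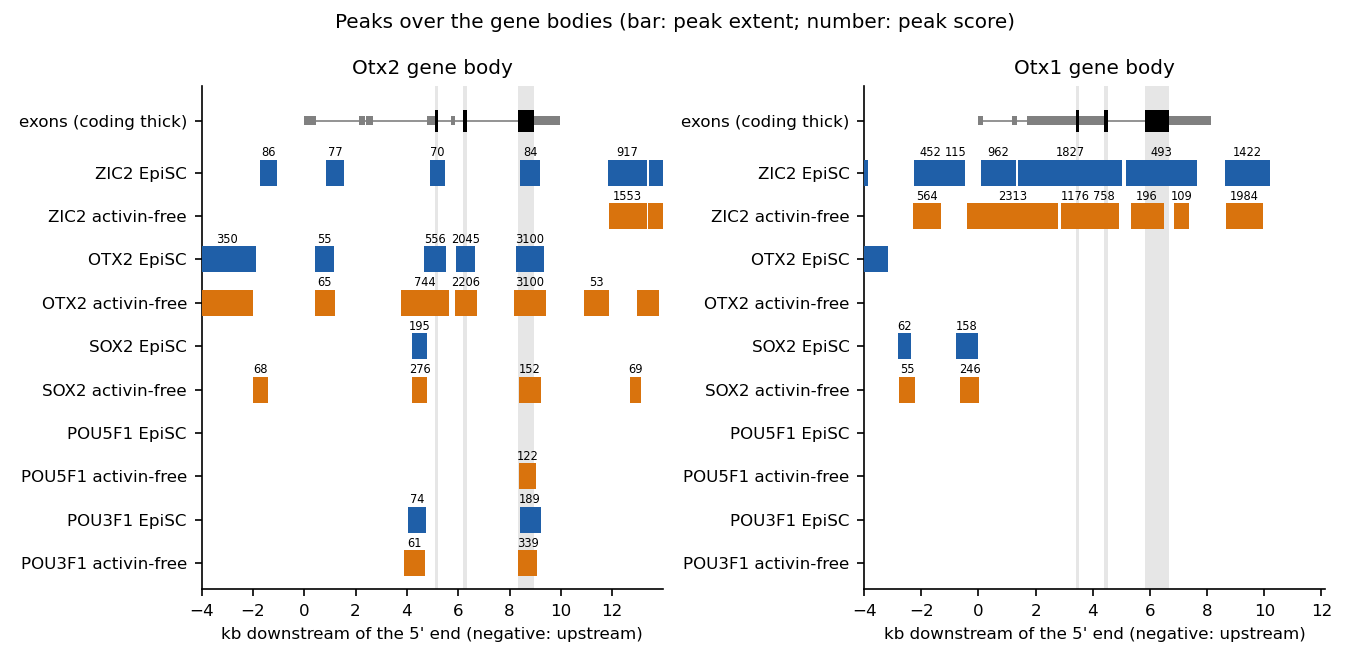
Peaks over the Otx2 and Otx1 gene bodies and a little beyond. The horizontal axis gives kb downstream of the 5′ end, each row is 1 of the 10 lists (blue, EpiSC; orange, activin-free), bars span the peaks, numbers are scores, and grey bands are coding exons. OTX2 peaks of score 3100 lie on the last coding exon of Otx2, and the bars within Otx1 are ZIC2 peaks, apart from the end of an activin-free SOX2 peak (246) at the 5′ end.

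Otx1 showed another picture, in which ZIC2 peaks filled the gene. In EpiSCs 3 ZIC2 peaks lay in the gene body, with scores of 962, 1827 and 493 from the 5′ end onwards, and covered 100% of the 1065 coding bases. They also covered 88.8% of the 1712 intron bases at the same distance from coding sequence. In activin-free cells 5 ZIC2 peaks lay in the gene, with scores of 2313, 1176, 758, 196 and 109, and covered 81.9% of the coding bases and 83.8% of these intron bases. No peak of the OTX2, SOX2, POU5F1 or POU3F1 lists covered coding bases of Otx1 in either culture. ZIC2 peaks thus lay on introns and coding exons of Otx1 alike, whereas most intron bases of Otx2 lay outside the OTX2 peaks.

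The ZIC2 peaks of Otx1 extended beyond the gene on both sides. A peak 9.4 kb downstream of the 5′ end, just past the end of the gene, had scores of 1422 in EpiSCs and 1984 in activin-free cells. Upstream, peaks at 1.7 kb in EpiSCs and 1.8 kb in activin-free cells had scores of 452 and 564. Here SOX2 was present as well: a SOX2 peak 0.4 kb upstream of the 5′ end had a score of 158 in EpiSCs, and its counterpart at 0.3 kb in activin-free cells a score of 246. Smaller SOX2 peaks followed at 2.6 kb (62.5) and 2.5 kb (54.5). A ZIC2 peak at 0.8 kb with a score of 115 was in the EpiSC list alone. In an intron of Ehbp1 an EpiSC ZIC2 peak at 4.4 kb (158) and an OTX2 peak at 4.0 kb (175) overlapped, and both were listed in activin-free cells, with scores of 128 and 59.3 at 4.5 and 4.6 kb. Away from this stretch ZIC2 peaks were rare at Otx1, with 1 peak farther upstream (25.5 kb; 186 in EpiSCs and 218 in activin-free cells) and 2 farther downstream, at 103.5 and 133.9 kb, with EpiSC scores of 234 and 272.

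At Otx2, the highest ZIC2 peaks lay downstream of the gene. The highest were 15.7 kb downstream of the 5′ end (995 in EpiSCs, 771 in activin-free cells), 69.5 kb downstream (972, and 1436 at 69.4 kb) and 12.6 kb downstream (917 and 1553). In EpiSCs they exceeded 90.8%, 90.4% and 89.6% of the ZIC2 list. Upstream, the ZIC2 peak at 33.4 kb had scores of 331 and 581, and that at 136.8 kb scores of 304 and 535. The other ZIC2 peaks of the Otx2 locus scored 110 or less in EpiSCs, apart from 1 of 227 at 13.8 kb downstream.

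POU5F1 and POU3F1 peaks lay mostly upstream of both genes. For POU5F1 at Otx2 this held for all 8 peaks in EpiSCs and 12 of 14 in activin-free cells. For POU3F1 it was 11 of 13 and 10 of 13, and the other 2 EpiSC peaks were in the gene. At Otx1 the upstream side had 6 of 7 and 12 of 14 POU5F1 peaks, and 20 of 22 and 18 of 20 POU3F1 peaks. None lay in the Otx1 gene. Over all 5 TFs and both cultures, 94 of 149 peaks at Otx2 and 107 of 153 at Otx1 lay upstream. In EpiSCs it was 11 of 18 and 10 of 14 for OTX2, and 8 of 13 and 9 of 16 for SOX2. For ZIC2 it was 5 of 16 and 4 of 10.

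At Otx2 the highest POU peaks formed a series that both POU lists shared in part. The site at 141.6 to 141.7 kb upstream had scores of 455 for POU5F1 and 654 for POU3F1 in EpiSCs and of 1699 and 1244 in activin-free cells. At 132.7 to 132.9 kb the scores were 398 and 528 in EpiSCs, and 1111 and 808 in activin-free cells. At 72.5 kb POU5F1 scored 379 and 1382, and at 111.1 kb 129 and 1233. The peak at 15.3 kb, with the run of alternating bases shown above, was listed for POU5F1 alone among the POU TFs, with scores of 473 and 1382. Runs of at least 20 such bases stood near the midpoint of 29.6% of all EpiSC POU5F1 peaks and of 4.41% of windows 1000 bp away from them, and in 1 of the 8 at Otx2.

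The highest POU peaks of Otx1 lay in Ehbp1. POU5F1 had a peak 6.3 kb upstream of Otx1 with a score of 254 in EpiSCs, and the peak at 6.4 kb in activin-free cells had a score of 2388, higher than 95.4% of that list. At 37.4 kb the activin-free POU5F1 list had a peak of 1784, where the EpiSC list had peaks of 142 at 36.4 kb and 127 at 37.6 kb. POU3F1 peaks of scores 1524 and 1421 spanned 4510 and 4684 bp at 36.5 kb in EpiSCs and 36.6 kb in activin-free cells. POU3F1 peaks at 43.0 and 43.1 kb had scores of 1426 and 1596. Farther upstream POU3F1 peaks recurred, and of all 22 EpiSC POU3F1 peaks at Otx1, 21 scored 100 or more, against 10 of 13 at Otx2. Most peaks of the whole EpiSC POU3F1 list passed this score too, as a score of 106 exceeded 28.3% of them. The median EpiSC POU3F1 score was 294 at Otx1 and 134 at Otx2, against 193 over the whole list.

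SOX2 had 13 EpiSC peaks at Otx2 and 16 at Otx1. At Otx2 the highest in EpiSCs was 154.2 kb downstream of the 5′ end, with scores of 518 and, at 154.3 kb, 401. The SOX2 peak at 15.8 kb upstream, next to the POU5F1 peak at 15.3 kb, had scores of 262 and 437.

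**Figure D2:**
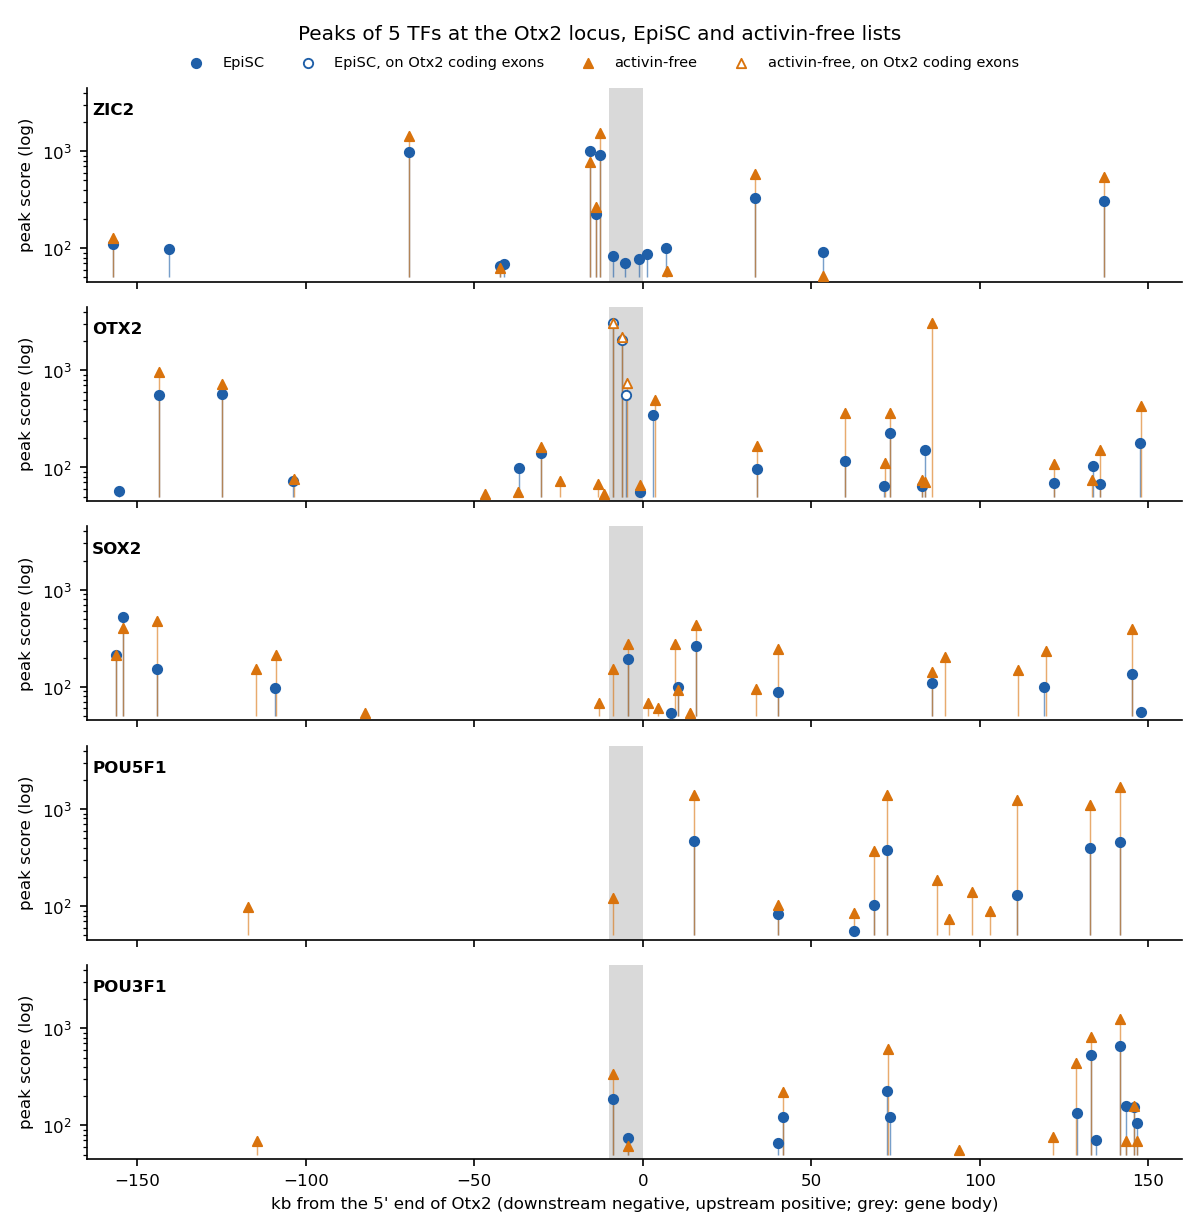
Peaks at the Otx2 locus. Each panel is 1 TF, the horizontal axis gives kb from the 5′ end of Otx2 (upstream positive), and the vertical axis gives the peak score on a log scale, with circles for EpiSC and triangles for activin-free peaks and open symbols for OTX2 peaks on Otx2 coding exons. The highest ZIC2 peaks (up to 1553) lie downstream of the gene, most POU5F1 and POU3F1 peaks upstream, and 1 activin-free OTX2 triangle of score 3077 stands 85.7 kb upstream with no circle.

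**Figure D3:**
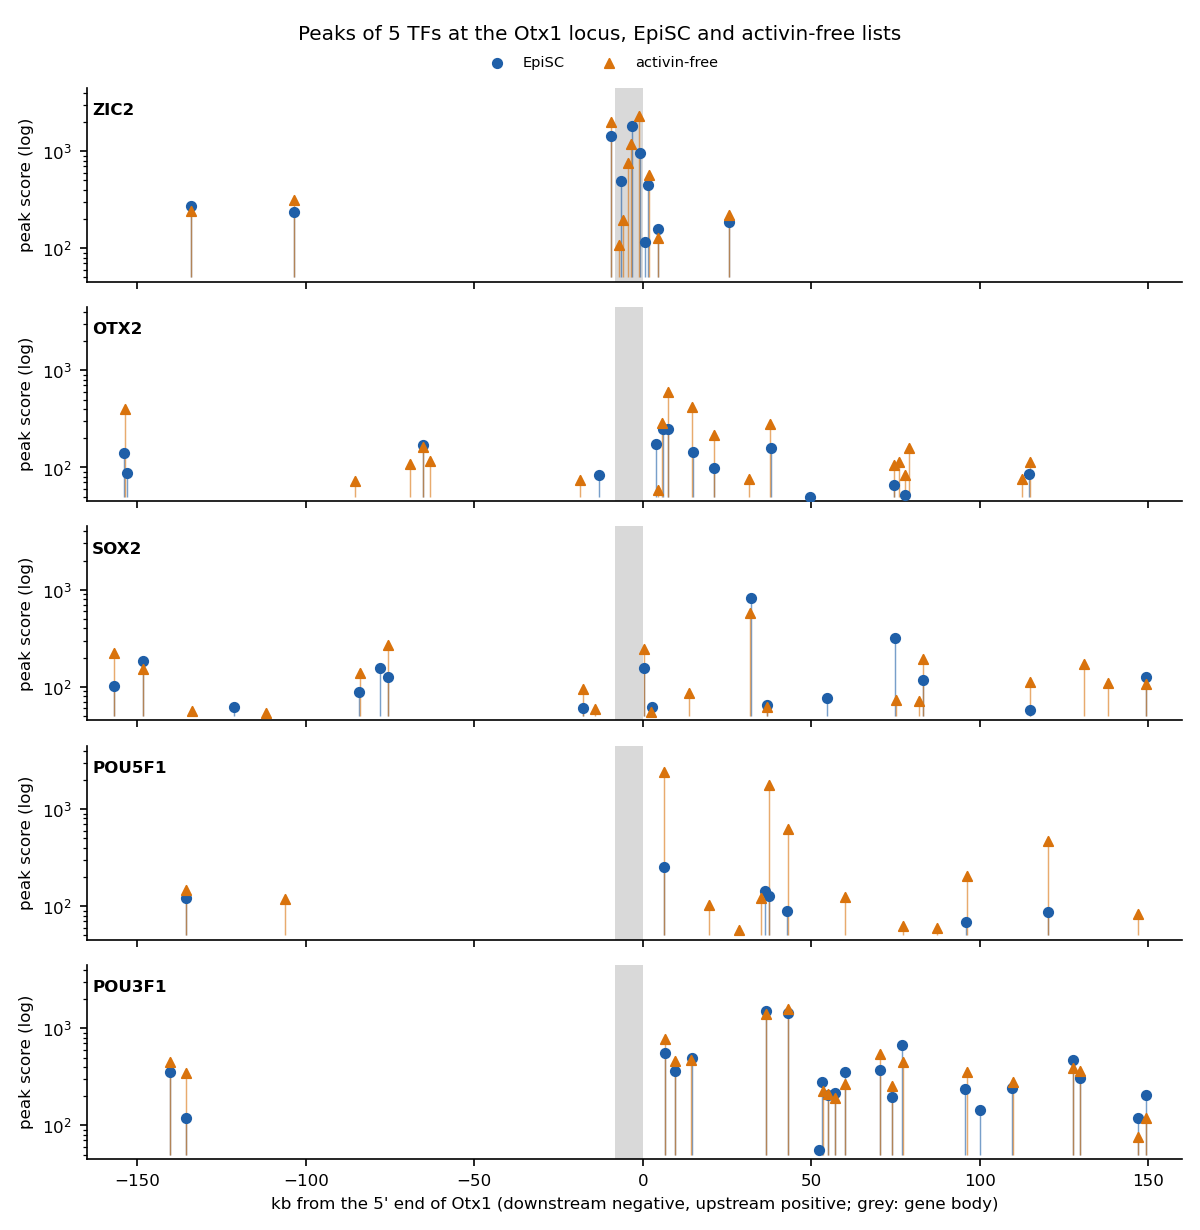
Peaks at the Otx1 locus, drawn as for Otx2. ZIC2 peaks crowd in and around the gene body, and most POU3F1 peaks lie upstream, with their highest scores, 1524 and 1426 in EpiSCs, at 36.5 and 43.0 kb.

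Away from its coding exons, the highest EpiSC peaks of OTX2 at Otx2 lay far downstream. The highest, 124.8 kb downstream, had scores of 576 in EpiSCs and 723 in activin-free cells, and that at 143.4 kb downstream scored 554 and 975 and overlapped a SOX2 peak (154 and 481). In EpiSCs these OTX2 peaks exceeded 98.4% and 98.2% of the OTX2 list, and the peak 3.0 kb upstream exceeded 93.7%. The OTX2 peaks within the Otx1 window reached 248 in EpiSCs, at 7.5 kb upstream, and 594 in activin-free cells, at 7.4 kb. All of these had a counterpart in the other culture.

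An OTX2 peak of very high score had no counterpart. In activin-free cells the OTX2 list had a peak of score 3077 at chr14:49372224-49373803, 85.7 kb upstream of Otx2, or 88.1 kb from the start of transcript 001. It ranked 10 of the 114041 peaks of its list, and its score was 3.15 times the next highest of that list at the locus outside Otx2 coding exons. The EpiSC OTX2 list had no peak there, and its nearest peak was 744 bp away with a score of 151. Of 1250 activin-free OTX2 peaks with a score of at least 1000, 2 overlapped no EpiSC OTX2 peak, which is 0.160%. The other, on chromosome 8, had a score of 1134. SOX2 had a peak within the same span in both cultures, with scores of 111 and 142, and no ZIC2, POU5F1 or POU3F1 peak overlapped it.

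The width of this peak, 1580 bp, was small for its score. Among the 86 activin-free OTX2 peaks with a score of at least 2000, 95.3% were wider, and 3 were narrower. Of those 3, 2 were the peaks on Otx2 coding exons, with 1269 and 845 bp, and the third was 1090 bp wide on chromosome 17, with a score of 3059. The whole peak contained 1 GGATTA word, 1 octamer and 5 SOX words, of which only a SOX word stood in the 201 bp shown. With 1 library a culture, a difference between cultures and a difference between these libraries cannot be told apart. Whether this peak marks OTX2 bound to the genome or has another source was not tested.

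Upstream of this peak the activin-free lists held further entries that the EpiSC lists lacked. A stretch of 6 neighbouring merged sites from 87.3 to 102.9 kb upstream was listed in activin-free cells alone, each site by 1 TF, with scores up to 202. This was the longest stretch of its kind at Otx2, and at Otx1 the longest was of 2 sites. POU5F1 gave 4 of the 6 sites, with scores of 186 at 87.3 kb, 74.05 at 91.0 kb, 141 at 97.8 kb and 89.95 at 102.9 kb. SOX2 had one of 202 at 89.8 kb and POU3F1 one of 55.6 at 93.8 kb. Over the whole activin-free lists, only 47.1% of POU5F1, 55.9% of SOX2 and 86.8% of POU3F1 peaks overlapped an EpiSC peak of the same TF. How often such stretches occur elsewhere in the genome was not counted. Besides the OTX2 peak, the peaks of at least 200 in 1 culture alone were the SOX2 peak of 202 and a SOX2 peak of 278 at 9.7 kb upstream of Otx2, again in activin-free cells. The nearest EpiSC SOX2 peak was 3134 bp from the first and only 83 bp from the second. Over the whole list, 1502 of 19334 activin-free SOX2 peaks of at least 200 (7.77%) overlapped no EpiSC SOX2 peak.

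Over both loci, 118 of 137 EpiSC peaks (86.1%, 95% Wilson interval 79.4 to 90.9) overlapped a peak of the same TF in activin-free cells, by at least 1 bp. Over all peaks this share was 82.1%, within the interval. In the other direction it was 118 of 165 (71.5%, 64.2 to 77.9), against 69.2% of all peaks. The intervals cover counting error only, and neighbouring peaks are not independent.

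The values by TF stand beside those of the whole lists. All 8 EpiSC POU5F1 peaks at Otx2 and all 7 at Otx1 were listed again in activin-free cells, against 98.3% of the whole list. For OTX2 it was 17 of 18 and 12 of 14 (78.1% of all), for SOX2 11 of 13 and 13 of 16 (77.6%), and for POU3F1 11 of 13 and 20 of 22 (82.6%). ZIC2 had 9 of 10 at Otx1 but 10 of 16 at Otx2 (62.5%, 38.6 to 81.5), where the interval included the 78.9% of the whole list. The 6 ZIC2 peaks of Otx2 that were not listed again had scores up to 97.2. Of these 6, 2 overlapped coding exons of Otx2 (83.6 and 69.7), and their source was not tested. In activin-free cells, 11 of 22 SOX2 peaks at Otx2 and 13 of 20 at Otx1 had a counterpart in EpiSCs (55.9% of all). Activin-free ZIC2 peaks had a counterpart in 10 of 10 cases at Otx2 and 11 of 11 at Otx1 (91.2% of all), POU3F1 peaks in 10 of 13 and 20 of 20 (86.8%), POU5F1 peaks in 8 of 14 and 7 of 14 (47.1%), and OTX2 peaks in 17 of 22 and 11 of 19 (67.5%).

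Scores of peaks listed in both cultures were higher in activin-free cells for 8 of 8 POU5F1 peaks at Otx2 and 7 of 7 at Otx1, as they were for 98.4% of all such POU5F1 peaks. The median ratio of the activin-free to the EpiSC score was 3.25 at Otx2 and 6.92 at Otx1, where it ranged from 1.19 to 14.0, and 3.83 over the whole list. ZIC2 scores were higher in activin-free cells for 6 of 10 peaks at Otx2 and 6 of 9 at Otx1 (57.2% of all), with median ratios of 1.16 and 1.25 (1.09 of all). For OTX2 it was 14 of 17 and 10 of 12 (71.4%), with ratios of 1.42 and 1.70 (1.35). For SOX2 it was 9 of 11 and 7 of 13 (71.6%), with ratios of 1.67 and 1.56 (1.35), and for POU3F1 8 of 11 and 11 of 20 (59.2%), with ratios of 1.79 and 1.07 (1.13). The median ratio was thus highest for POU5F1 at both loci, as over the whole lists. Scores depend on the depth of each library, which is unknown, so these ratios do not compare the amount of bound TF.

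**Figure D4:**
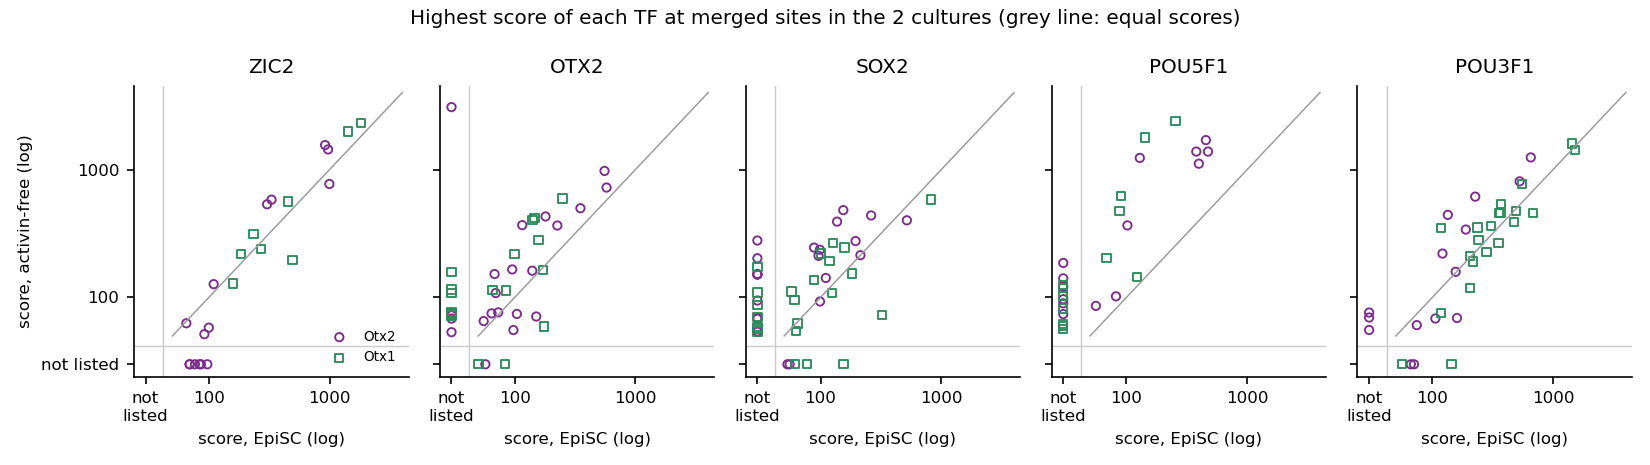
Highest score of each TF at merged sites of Otx2 (circles) and Otx1 (squares), with EpiSC on the horizontal and activin-free on the vertical axis, both on log scales. Symbols in the margins were listed in 1 culture alone, and the grey line marks equal scores. POU5F1 symbols lie above the line or in the left margin, and the OTX2 symbol of 3077 stands high in the left margin of its panel.

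Peaks of the 5 EpiSC lists formed 101 merged sites at both loci, of which 24 held peaks of 2 or more TFs (23.8%, 16.5 to 32.9), against 18.3% of all merged EpiSC sites. In activin-free cells it was 34 of 113 (30.1%, 22.4 to 39.1), against 23.9%. TFs thus shared sites at these loci in a share whose interval included that of all sites. Sites with 3 or more TFs numbered 6 in EpiSCs, where 2.73% of all sites were of this kind, and 10 in activin-free cells, against 5.05%.

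Each of the 6 EpiSC sites with 3 or more TFs lay upstream of its gene and included POU3F1, and none included ZIC2. At Otx2 these were the sites at 73.1 kb, with OTX2 (226), POU5F1 (379) and POU3F1 (227), at 133.0 kb, with OTX2 (104), POU5F1 (398) and POU3F1 (528), and at 40.1 kb, with SOX2 (88.4), POU5F1 (82.0) and POU3F1 (66.4). At Otx1 the site at 6.7 kb held OTX2 (248), POU5F1 (254) and POU3F1 (554). The site at 36.5 kb held 4 TFs, OTX2 (158), SOX2 (64.5), POU5F1 (142) and POU3F1 (1524). The site at 75.8 kb held OTX2 (65.7), SOX2 (322) and POU3F1 (683). Where a TF had more than 1 peak in a site the highest is given. The POU3F1 peak had the highest score at 4 of these 6 sites, while at 73.1 kb POU5F1 and at 40.1 kb SOX2 scored higher. Scores of different lists are not on 1 scale, so this order does not rank the TFs. The median EpiSC score was 193 for POU3F1, 133 for POU5F1, 99.2 for OTX2 and 95.5 for SOX2. At 133.0 kb POU5F1 exceeded 83.4% of its list and POU3F1 80.0%. The 10 activin-free sites were more mixed. Of these, 8 lay upstream, 8 included POU3F1 and 2 included ZIC2. At both sites with ZIC2, 12.7 kb downstream and 33.6 kb upstream of Otx2, ZIC2 (1553 and 581) stood with OTX2 (68.3 and 166) and SOX2 (68.8 and 94.6) and without POU3F1. The other site that was not upstream lay on the last coding exon of Otx2, where OTX2 peaks were left out of the count.

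The partners of OTX2 peaks were counted next. Of 32 EpiSC OTX2 peaks, 8 overlapped a POU3F1 peak (25.0%, 13.3 to 42.1), against 7.05% of all OTX2 peaks, and 5 overlapped a POU5F1 peak (15.6%, 6.86 to 31.8), against 4.90%. Both intervals lay above the value of the whole list, though neighbouring peaks can share a partner and no test was made. By locus, the share with a POU3F1 peak was 6 of 14 at Otx1 (42.9%, 21.4 to 67.4) and 2 of 18 at Otx2 (11.1%). With a POU5F1 peak it was 3 of 14 at Otx1 (21.4%, 7.57 to 47.6) and 2 of 18 at Otx2 (11.1%). At Otx2 alone both intervals included the value of the whole list. Of the 32 peaks, 3 overlapped a ZIC2 peak (9.38%, 3.24 to 24.2), against 17.8%, and 4 overlapped a SOX2 peak (12.5%, 4.97 to 28.1), against 7.57%. Read from the ZIC2 list, 5 of 26 ZIC2 peaks overlapped an OTX2 peak (19.2%, 8.51 to 37.9; 14.8% of all) and 2 of these 5 met only OTX2 peaks on Otx2 coding exons. In activin-free cells it was 4 of 21 (interval 7.67% to 40.0%; 12.7% of all). No EpiSC POU5F1 peak overlapped a ZIC2 peak (0 of 15, upper bound 20.4%; 5.27% of all), nor did an activin-free one (0 of 28, upper bound 12.1%; 3.48%). A POU3F1 peak was overlapped by 10 of 15 EpiSC POU5F1 peaks (66.7%, 41.7 to 84.8), against 51.6%. In activin-free cells it was 13 of 28 (46.4%, 29.5 to 64.2), against 46.3%. Read from the POU3F1 list, 10 of 35 EpiSC peaks overlapped a POU5F1 peak (28.6%, 16.3 to 45.1), against 28.0%. In activin-free cells it was 12 of 33 (36.4%, 22.2 to 53.4), with the 54.6% of the whole list above the interval. In the activin-free lists 11 of 41 OTX2 peaks overlapped a POU3F1 peak (26.8%, 15.7 to 41.9), against 11.5%. By locus this was 4 of 22 at Otx2 (18.2%, 7.31 to 38.5) and 7 of 19 at Otx1 (36.8%, 19.1 to 59.0). The shares for SOX2 (10 of 41, 24.4%), POU5F1 (7 of 41, 17.1%) and ZIC2 (4 of 41, 9.76%) compared with 12.5%, 11.9% and 12.0%. Activin-free ZIC2 peaks overlapped a SOX2 peak in 5 of 21 cases (23.8%, 10.6 to 45.1), against 4.88%, whereas in EpiSCs it was 1 of 26 (3.85%, 0.682 to 18.9), against 2.74%. The SOX2 peaks met in activin-free cells scored 246, 94.6, 68.8, 57.0 and 54.5, where every listed peak scored at least 50. The SOX2 list was also longer in activin-free cells (87907 peaks against 63751). The difference between the cultures was not tested. In EpiSCs 10 of 35 POU3F1 peaks overlapped an OTX2 peak (28.6%, 16.3 to 45.1), against 6.38%, and in activin-free cells 10 of 33 (30.3%, 17.4 to 47.3), against 12.9%. In each culture 2 of these 10 met only OTX2 peaks on Otx2 coding exons, and the shares without them were 22.9% and 24.2%.

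Binding words near the midpoints were compared with those of the whole lists. GGATTA was found within 100 bp of the midpoint in 4 of 32 EpiSC OTX2 peaks (12.5%, 4.97 to 28.1), in 23.6% of all EpiSC OTX2 peaks, and in 9.02% of windows 1000 bp away from those. In activin-free cells it was 4 of 41 (9.76%, 3.86 to 22.5), against 21.8%. When the whole peak was searched, 50% of the 32 had the word, and 52.9% of all OTX2 peaks. The shares over the whole peak were thus close, and within 100 bp of the midpoint the share was smaller at these loci, with intervals that included the values of the whole lists. SOX words were found in 18 of 29 EpiSC SOX2 peaks (62.1%, 44.0 to 77.3), against 57.4% of all SOX2 peaks and 30% of windows beside them. The octamers were found in 4 of 15 EpiSC POU5F1 peaks (26.7%, 10.9 to 52.0; 18.6% of all) and in 3 of 35 POU3F1 peaks (8.57%, 2.96 to 22.4; 8.84% of all). The ZIC word was found in 5 of 26 ZIC2 peaks (19.2%, 8.51 to 37.9; 19.1% of all). In activin-free cells SOX words were found in 24 of 42 SOX2 peaks (57.1%; 55.5% of all), the octamers in 3 of 28 POU5F1 peaks (10.7%; 13.6%) and 2 of 33 POU3F1 peaks (6.06%; 9.36%), and the ZIC word in 3 of 21 ZIC2 peaks (14.3%; 21.0%). A word is a match of letters, not a shown binding site.

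The median base composition of the peaks differed between the TFs at these loci, as over the whole lists. The median share of G and C within 100 bp of EpiSC midpoints was 55.7% for ZIC2 at Otx2 and 57.7% at Otx1, against 55.2% for all ZIC2 peaks. For OTX2 it was 42.8% and 39.6% (43.8% of all), for SOX2 40.3% and 38.1% (37.8%), for POU5F1 32.6% and 31.8% (34.3%), and for POU3F1 38.3% and 32.1% (32.8%). POU3F1 peaks had the higher median at Otx2, with ranges that overlapped. The lowest ZIC2 value at Otx1, 52.2%, exceeded the highest POU3F1 value there, 44.8%, whereas at Otx2 the ranges overlapped, with a lowest ZIC2 value of 41.3% and a highest POU3F1 value of 49.8%.

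The loci were finally set among the 22367 protein-coding genes, each with its body and 150 kb on either side. For ZIC2, 38.0% of genes had fewer EpiSC peaks than the 16 of Otx2, and 25.4% fewer than the 10 of Otx1, with a median of 23.0. For OTX2, 39.4% had fewer than the 18 of Otx2 and 28.2% fewer than the 14 of Otx1 (median 21.0). The SOX2 counts were high by comparison, with 84.1% of genes below the 13 of Otx2 and 90.6% below the 16 of Otx1 (median 5). For POU3F1 79.2% and 88.9% of genes were below the 13 and 22 (median 2), and for POU5F1 68.7% and 61.5% were below the 8 and 7 (median 5). Summed over the TFs, 43.1% of genes had fewer than the 68 peaks of Otx2 and 44.3% fewer than the 69 of Otx1, with a median of 73.0, and this place depended on the measure (52.0% and 53.7% by peaks per 100 kb of window). The windows were 43.7% G and C at Otx2 and 39.9% at Otx1, where the median gene had 44.2%, and the part of base composition in these counts was not tested.

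**Figure D5:**
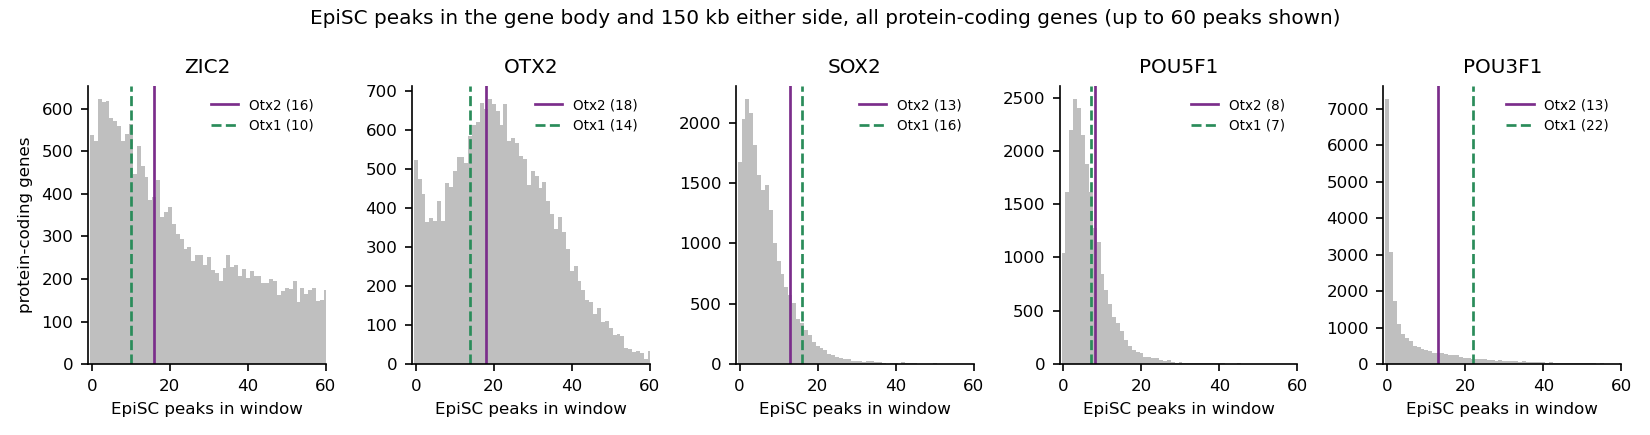
Number of EpiSC peaks in the window of each protein-coding gene, by TF, up to 60 peaks, with the number of genes on the vertical axis. The lines mark Otx2 (solid) and Otx1 (dashed), which stand below the median for ZIC2 and OTX2 and above it for SOX2 and POU3F1, with 13 and 22 POU3F1 peaks.

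The 9 other genes of the OTX family and of anterior patterning, listed with earlier results of these data known, varied among themselves in EpiSCs. For ZIC2, 7 of 9 had more EpiSC peaks than Otx2, up to 51 for Lefty1, which encodes an inhibitor of nodal signalling. For SOX2 only Dkk1, a secreted inhibitor of Wnt signalling, had more peaks (14) than Otx2, and no gene of the list had more than Otx1. For POU3F1, Dkk1 (24) and Cer1 (19), which encodes a secreted inhibitor of nodal and BMP signals, had more than Otx2, and the other 7 had from 0 to 4. The windows of these genes were 39.9% and 41.5% G and C. For OTX2 itself, Lhx1 (33), a LIM homeodomain TF, and Hesx1 (29), a homeodomain TF of the anterior neural plate, had the most peaks of the list. Crx, the third member of the OTX family, which acts in photoreceptors, had 21 OTX2 peaks, 34 ZIC2 peaks, 2 SOX2 peaks and no POU3F1 peak.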

How the data were processed

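Chromatin bound by each biotinylated TF was recovered on streptavidin and sequenced by the authors, who used Bowtie2 for alignment to mm9 and MACS1.4, with input DNA as reference, for peaks of each library. The Bowtie2 version was not given in the sources used here. The deposited BED lists give the position of each peak and a score, which the authors' caller sets to -10 × log10 of the p-value. The score is not normalized for depth, and reads or coverage were not analysed here, so depth is unknown. The 1 input library, from cells grown with 20 ng/ml activin, gives no peak list and entered no comparison. The samples hold no input of activin-free cells.

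Peaks were assigned by midpoint to the gene body and 150 kb on either side, using the mm9 sequence (NCBIM37) and its GENCODE genes. Overlap meant at least 1 shared bp. Words were searched within 100 bp of the midpoint and in windows of the same length 1000 bp to either side. Counts have 95% Wilson intervals, which cover counting error only. No test was made, because each group was 1 library. Python 3.11.15, numpy 2.4.6, pysam 0.24.0, statsmodels 0.14.6 and matplotlib 3.10.9 were used, and the overlap and word steps were checked on simulated data.

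One gene of the list and 1 site are not reported here. The members and gene lists were chosen with earlier results of these data known. Sites were named if they had 3 or more TFs in EpiSC lists, were among the 5 highest peaks of a locus, lay within 5 kb of a start site, or were listed in 1 culture only with a score of at least 200. Sites named beyond this rule, among them the stretch of activin-free sites, were picked once the values were known. Alternatives were a score of at least 100, windows of 100 and 50 kb, other overlap and word rules, and summed peak width. Peaks per 100 kb, peaks within 1000 bp of each other, and the score minimum for activin-free peaks were added after the data were seen.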

Additional observations from a re-analysis of the deposited data

How the results depend on the processing

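The numbers of peaks followed the window and the score minimum. The Otx2 count of 68 in EpiSCs became 40 with scores of at least 100, 42 within 100 kb and 27 within 50 kb, and the 81 of activin-free cells became 51, 53 and 32. The Otx1 counts of 69 and 84 became 30 and 35 within 50 kb. Where an overlap needed 50% of both peaks, the share of EpiSC peaks found again fell from 86.1% to 78.1%, and that of OTX2 peaks on a ZIC2 peak from 9.38% to 3.12%. Searching whole peaks raised the share of OTX2 peaks with GGATTA from 12.5% to 50%. The share of genes with fewer peaks than Otx2 (43.1%) was 41.8% with the score minimum, 34.2% within 100 kb, 36.3% by summed width and 52.0% per 100 kb. For Otx1 (44.3%) it was 59.2%, 46.9%, 57.9% and 53.7%. Thus the place of both genes relative to the median gene depended on the measure, and the cause was not tested. Of 50 alternative values, 31 were classed as unchanged. For shares this meant a value within the Wilson interval of the main share. For numbers of peaks it meant a change within a fixed factor, which does not measure counting error. The unknown depth limits every comparison of scores. No paired analysis was possible because each group was 1 library and no result came from a test.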
